A study of Mus musculus with 6 samples.

Results

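A set of 10 genes of extracellular matrix breakdown was followed in colonic macrophages (MΦs) that lack the IL10 receptor β chain: the matrix metalloproteinases (MMPs) Mmp2, Mmp9, Mmp12, Mmp13, Mmp14 and Mmp19, the tissue inhibitors of metalloproteinases Timp1, Timp2 and Timp3, and the membrane protease Adam8. They were taken from the expression table by gene symbol, and all 10 were found among its 14097 genes. All 10 also passed the filter of 50 normalized counts in at least 1 library, as did 11067 genes in all, although Timp1 and Timp3 reached that level only at 12 weeks. RNA was sequenced from P3/P4 MΦs, the Ly6C-MHCII+ fraction of CD45+CD11b+CD11cintCD103-CD64+ cells of the colonic lamina propria, sorted from untreated 129SvEv mice. There was 1 library for each of 6 groups, Il10rb-/- (KO) and Il10rb+/- (het) at 1, 3 and 12 weeks of age. The het controls were littermates that carry 1 disrupted Il10rb allele, the deletion in KO mice is present in every cell type, and no wild-type mice were sequenced. Each library came from 1 mouse at 3 and 12 weeks and from a pool of mice at 1 week. A difference at a single age therefore has no replicate check.

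MMPs are zinc-dependent enzymes that are made as inactive precursors and cut collagens, elastin, other matrix proteins, chemokines and cell surface proteins once their propeptide is removed. TIMPs bind the active site and block it, and Timp2 also takes part in the activation of pro-Mmp2 by the membrane-bound Mmp14. In the gut these enzymes are made by stromal cells and leukocytes, and macrophages are the main source of the elastase Mmp12.

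By the median over the 6 libraries, the most abundant members per base of exon were Mmp13, an interstitial collagenase, and Mmp12, the macrophage elastase, and both lie in a cluster of MMP genes on chromosome 9. Mmp13 (ENSMUSG00000050578) occupies chr9:7272514-7283331 and Mmp12 (ENSMUSG00000049723) chr9:7344381-7369499 on the plus strand of GRCm38, 61.0 kb apart. The 120 bases upstream of their RefSeq starts (GRCm38.p6, plus strand) are shown because these neighbours held the highest median levels and moved differently with genotype. Capitals mark matches to AP-1 (TGANTCA) and PEA3 (AGGAAG), 2 motifs long known from MMP promoters, searched on both strands. The stretches span chr9:7272394-7272513 for Mmp13, and chr9:7344277-7344396 and chr9:7347254-7347373 for the first and second Mmp12 starts.
Mmp13: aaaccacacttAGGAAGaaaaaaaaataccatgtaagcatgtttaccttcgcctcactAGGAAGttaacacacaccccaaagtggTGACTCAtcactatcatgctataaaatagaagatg
Mmp12 start 1: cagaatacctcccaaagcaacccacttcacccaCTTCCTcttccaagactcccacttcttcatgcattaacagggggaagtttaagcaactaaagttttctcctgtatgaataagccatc
Mmp12 start 2: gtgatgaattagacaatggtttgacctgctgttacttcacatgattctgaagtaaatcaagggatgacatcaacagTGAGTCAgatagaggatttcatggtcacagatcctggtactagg

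Mmp13 held an AP-1 match at -35 and PEA3 matches at -62 and -109, counted in bases from its start, and the matches did not overlap. The first Mmp12 start had a PEA3 match on the minus strand at -87, and the second an AP-1 match at -44. RefSeq promoters of 300 bases were at hand for 7 of the 10 members, without Mmp2, Mmp9 and Mmp19. No AP-1 match was found in those of Mmp14, Timp1, Timp2, Timp3 or Adam8. PEA3 was matched 3 times in Timp1 and once each in Mmp14 and Timp3. Of all 32851 promoters of this length, 7.81% held the AP-1 and 35.4% the PEA3 letters, so the PEA3 matches are common ones. A match is a description of the sequence and not a measured binding site.

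The reads on listed genes ranged from 6700337 in the 3-week het library to 40754971 in the 12-week het library, and 1 read was worth between 0.473 and 2.43 normalized counts. Il10rb was between 939 and 1220.5 normalized counts in the 3 het libraries and between 12.0 and 27.4 in the 3 KO libraries. The macrophage identity genes were abundant in all libraries, but their summed level (10 genes) was 117759 normalized counts in 12-week KO MΦs against 246286 to 297166 in the other 5 libraries. The 11 neutrophil markers, of which 10 were listed, summed to 12478 in 12-week KO MΦs and to 1453 to 2169 elsewhere. Most of the sum in the other 5 libraries was Csf3r, at 1414 to 2120, and Csf3r was at 6944 in 12-week KO MΦs. Ly6g, which defines neutrophils, had 25 reads there and 0 or 1 elsewhere. Retnlg (346 against 471) and Mpo (24 against 25 reads) were closer between 12-week het and KO MΦs. The 10 fibroblast markers summed to 239 and 1330 in het and KO MΦs at 1 week, to 3171 and 3348 at 3 weeks and to 4683 and 588 at 12 weeks. Monocyte genes summed to 4990 and 13601 in het and KO MΦs at 1 week, to 28219 and 24776 at 3 weeks and to 19288 and 35541 at 12 weeks. Epithelial genes summed to 177 and 941, to 1132 and 670 and to 619 and 2155 at these ages. Endothelial genes summed to 690 and 502, to 1054 and 1114 and to 4107 and 1282. Most of the monocyte sum at 3 weeks was Ccr2 (20629 in het and 19378 in KO MΦs) and Fn1 (6970 and 3309). By contrast, Ly6c2 (9.73 and 285) and Plac8 (513 and 1706) were higher in KO MΦs at that age. Of the 6 monocyte genes, 3 were higher in KO MΦs there. The part of these lists in the members' values was not tested. Y-linked genes had 1123 reads in the 1-week het pool and 5 to 46 in each other library, so the 1-week pools also differed in sex.

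**Figure D1:**
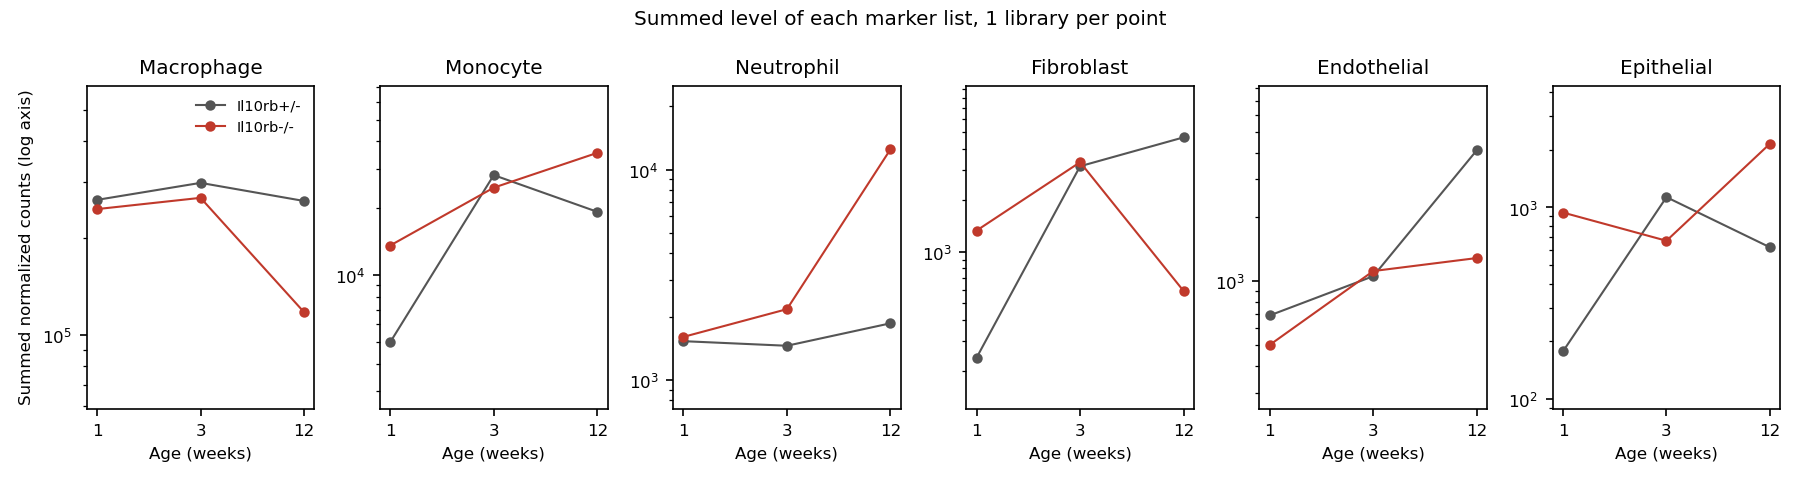
Summed normalized counts (log axis) of the genes of 6 cell type marker lists against age in weeks, 1 point per library, het in grey and KO in red. The 12-week KO library stands apart, with the lowest macrophage sum (117759) and the highest neutrophil sum (12478), and its fibroblast sum (588) is below that of the 12-week het library (4683).

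At 12 weeks the collagenase, the gelatinase Mmp2 and 2 inhibitors were all far lower in KO than in het MΦs, while Mmp14 and Adam8 were higher. At 1 week the pattern was another one, with Adam8 higher and Mmp9 lower in KO MΦs. At 3 weeks no member differed by 3-fold. The plots of levels by age and of genotype ratios show these values for every member.

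**Figure D2:**
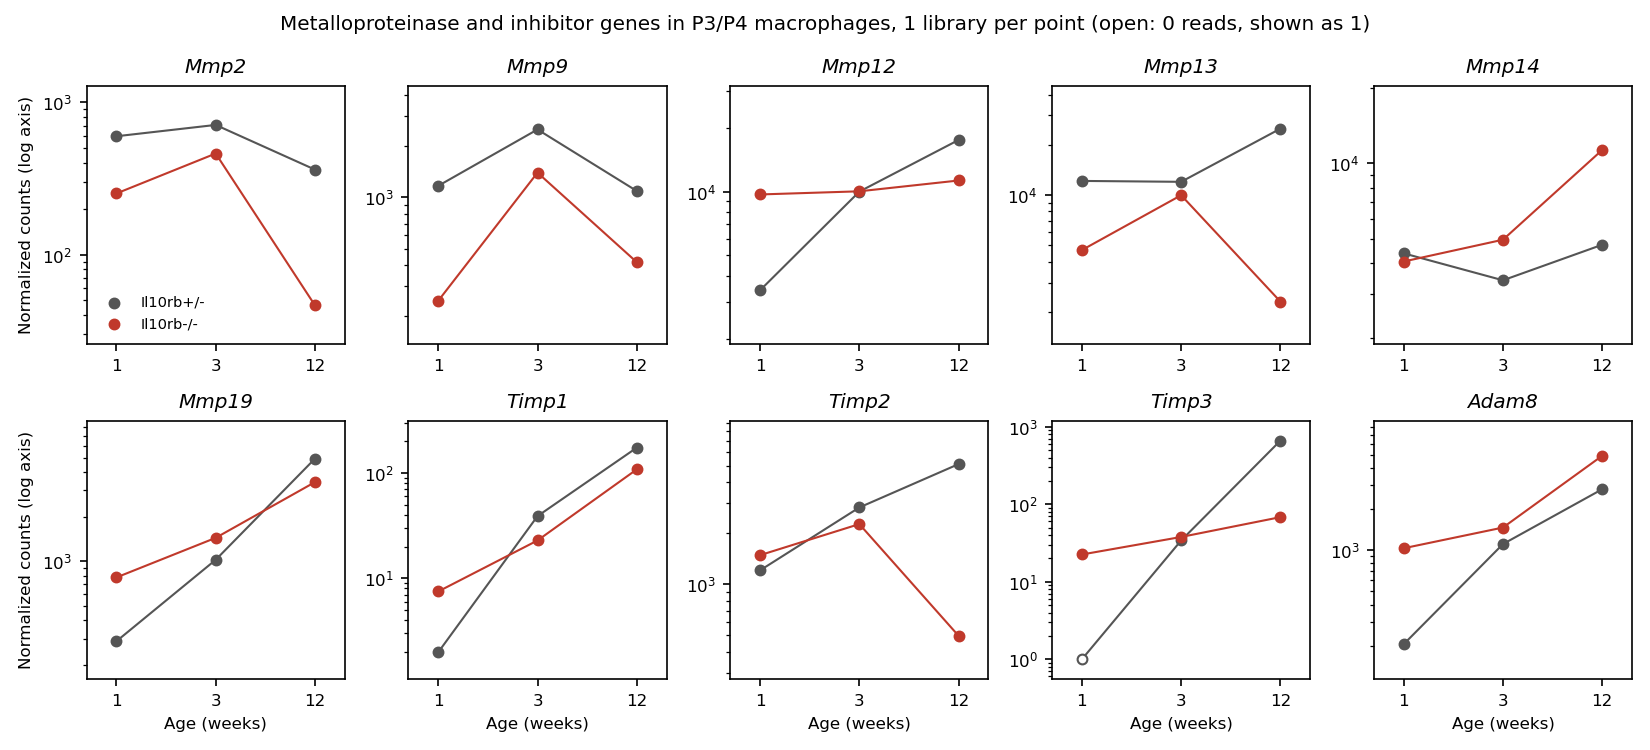
Normalized counts (log axis, a separate scale for each gene) of the 10 genes at 1, 3 and 12 weeks, 1 library per point, het in grey and KO in red, with an open point where a library had 0 reads. Mmp13 in 12-week KO MΦs (2308) and Timp2 (497) lie below all other libraries, while Mmp14 (11313) and Adam8 (4897) are at their highest there.

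Mmp13 was at 12168, 12019 and 25003 normalized counts in het MΦs at 1, 3 and 12 weeks and at 4693, 9994 and 2308 in KO MΦs. Every KO library was below every het library. Among all genes tested, 2.78% had all KO libraries below all het libraries, 2.86% had them all above, and Mmp13 was the only member in either class. The log2 ratio of KO to het was -1.37 at 1 week (95% counting interval -1.43 to -1.32), -0.27 at 3 weeks (-0.31 to -0.22) and -3.44 at 12 weeks (-3.49 to -3.39), the last a 10.8-fold lower level. These intervals cover counting error alone. Het MΦs had 2.08-fold more Mmp13 at 12 than at 3 weeks, whereas KO MΦs had 4.33-fold less.

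Mmp12 was at 3416, 9999 and 17548 normalized counts in het MΦs over the 3 ages and at 9697, 10034 and 11288 in KO MΦs. The KO libraries stayed within a narrow range that the het libraries crossed from below to above. The log2 ratio was 1.51 at 1 week (1.45 to 1.57), 0.01 at 3 weeks (-0.05 to 0.06) and -0.64 at 12 weeks (-0.66 to -0.61). Scaling by total reads gave -0.04 at 3 weeks, and it turned the ratio of 12 to 3 weeks in KO MΦs from 0.17 to -0.25 and that of 3 to 1 weeks from 0.05 to -0.13. In het MΦs Mmp12 was 2.93-fold higher at 3 than at 1 week and 1.75-fold higher at 12 than at 3 weeks. Mmp12 shares 157 exon bases with Mmp1b on the other strand, which had at most 13 reads in a library.

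The chromosome 9 cluster spans 427 kb. Of its MMP genes in the GENCODE annotation 9 were considered, 7 of them in the table and 3 past the filter, Mmp13, Mmp12 and Mmp8. At 12 weeks Mmp8, the neutrophil collagenase, was at 128 normalized counts in het and 1151 in KO MΦs, 8.98-fold higher, where Mmp13 was 10.8-fold and Mmp12 1.55-fold lower. Mmp3 had 6 and 31 reads, Mmp10 49 and 24 and Mmp7 0 and 30 in these libraries, and all 3 stayed under the filter. Neutrophil markers were higher in the same KO library as Mmp8. Of the 7 past the filter, 6 were over 3-fold higher, beside 4.03% of all genes. S100a8, S100a9, Cxcr2, Ngp and Ltf passed the filter only through that library, so this count was largely fixed by the filter. The part of neutrophil RNA in the Mmp8 value was not tested.

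Mmp9, gelatinase B, was at 1169, 2504 and 1090 normalized counts in het MΦs and at 247, 1397 and 416 in KO MΦs. It was lower in KO MΦs at each of the 3 ages, and both genotypes had their highest value at 3 weeks. The log2 ratio was -2.24 (-2.49 to -2.01), -0.84 (-0.96 to -0.73) and -1.39 (-1.52 to -1.26) at 1, 3 and 12 weeks. Neutrophils also store Mmp9 protein in granules, and neutrophil markers were highest in the 12-week KO library. Their part in the Mmp9 value was not tested.

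Mmp2, gelatinase A, was at 597, 708 and 361 normalized counts in het MΦs and at 252, 460 and 46.5 in KO MΦs. It too was lower in KO MΦs at all 3 ages, with log2 ratios of -1.25 (-1.5 to -1.0), -0.62 (-0.83 to -0.41) and -2.96 (-3.32 to -2.61). The 12-week value is a 7.76-fold lower level, resting on 73 reads against 763. Mmp2 is a typical product of fibroblasts. Of the 9 fibroblast markers past the filter, 8 were over 3-fold lower in that KO library as well, beside 9.99% of all genes. At 1 week, by contrast, 8 of these 9 were over 3-fold higher in KO MΦs, beside 2.75%, and Mmp2 was lower there. Several of these 1-week ratios rest on few het reads, such as Col6a1 (1 against 25 in KO), Col6a2 (6 against 22) and Lum (7 against 23). Pdgfra had 1 and 2 reads. It passed the filter only through the 12-week het library, so its 12-week call was largely fixed by the filter. The part of fibroblast RNA in the Mmp2 values was not tested, and in bulk samples fewer cells of a type and less RNA per cell cannot be told apart.

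Mmp14, the membrane-bound MMP that activates pro-Mmp2, was at 4374, 3414 and 4734 normalized counts in het MΦs and at 4057, 4958 and 11313 in KO MΦs. Its het values were the steadiest of all members, while the KO value at 12 weeks was well above the other 5 libraries. The log2 ratio was -0.11 (-0.18 to -0.04), 0.54 (0.45 to 0.62) and 1.26 (1.22 to 1.29) at the 3 ages. The 12-week ratio, 2.39-fold, stayed under 3-fold.

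Mmp19, an MMP of the basement membrane, was at 289, 1022 and 4918 normalized counts in het MΦs and at 777, 1438 and 3416 in KO MΦs. Both genotypes were higher at each later age. The log2 ratio of KO to het was 1.43 (1.22 to 1.64), 0.49 (0.34 to 0.65) and -0.53 (-0.57 to -0.48). Mmp19 shares 789 of its 3533 exon bases with Tmem198b on the opposite strand, which was at 300 to 1591 normalized counts. Since the strand setting of the counting is not stated, reads of the shared stretch cannot be told apart.

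Adam8, a membrane protease of myeloid cells that sheds adhesion receptors, was at 205, 1107 and 2788 normalized counts in het MΦs and at 1032, 1462 and 4897 in KO MΦs. It was the only member higher in KO MΦs at all 3 ages, with log2 ratios of 2.33 (2.10 to 2.56), 0.40 (0.25 to 0.55) and 0.81 (0.76 to 0.86). The 1-week ratio is 5.03-fold. In both genotypes the level was higher at each later age.

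**Figure D3:**
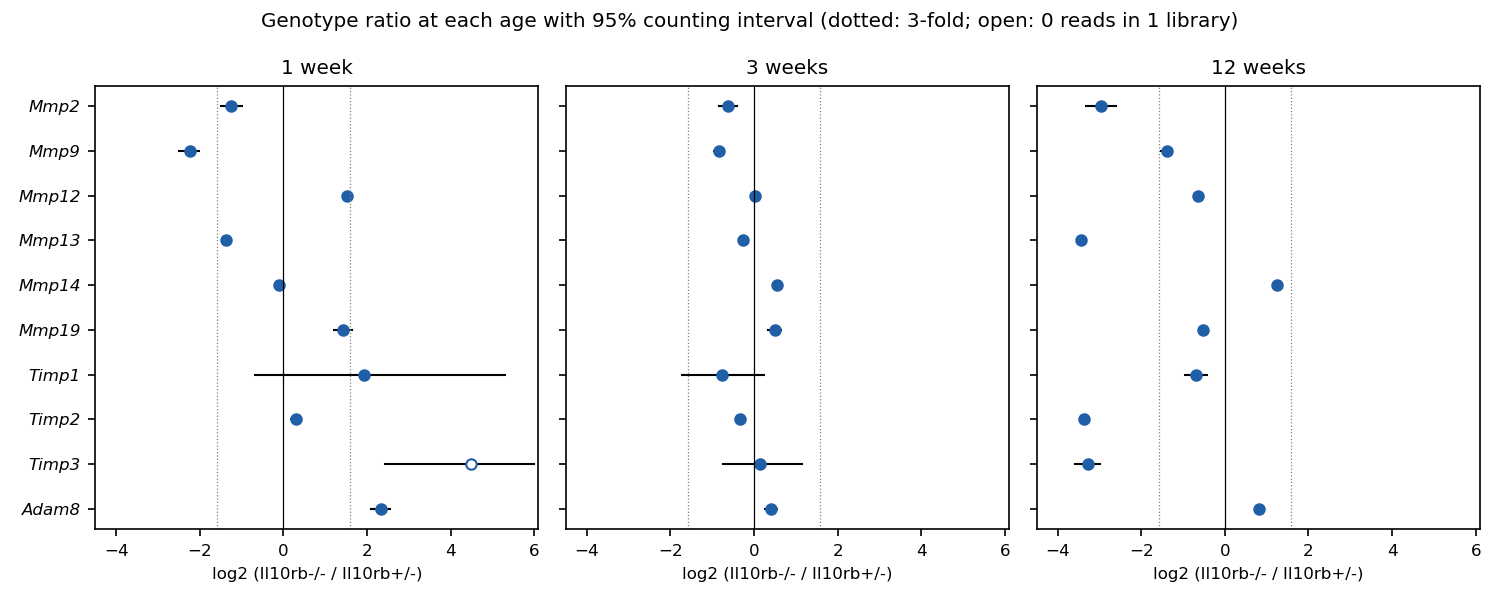
Log2 ratio of KO to het for the 10 genes at 1, 3 and 12 weeks, each point 1 pair of libraries with its 95% counting interval, dotted lines at 3-fold, and an open point where the het library had 0 reads. At 12 weeks Mmp13 (-3.44), Timp2 (-3.37), Timp3 (-3.28) and Mmp2 (-2.96) lie beyond the line on the lower side, and at 3 weeks no gene reaches a line.

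Timp2, the most abundant inhibitor, was at 1209, 2840 and 5118 normalized counts in het MΦs and at 1486, 2266 and 497 in KO MΦs. The genotypes were close at 1 and 3 weeks and far apart at 12 weeks. The log2 ratio was 0.30 (0.18 to 0.42), -0.33 (-0.43 to -0.22) and -3.37 (-3.47 to -3.26), the last a 10.3-fold lower level. Between 3 and 12 weeks Timp2 was 1.8-fold higher with age in het MΦs and 4.56-fold lower in KO MΦs. Of the 10 macrophage identity genes, 5 were also over 3-fold lower in the 12-week KO library, beside 9.99% of all genes. An example is Cx3cr1, the fractalkine receptor (8074 against 906). Csf1r was nearly level (47225 against 46878), and Fcgr1 (1285 against 1324) was the only 1 of the 10 that was higher. The part of these genes in the Timp2 and Mmp13 values was not tested.

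Timp3, an inhibitor that stays bound to the matrix, had 0, 14 and 1398 reads in het MΦs, or 0, 34.1 and 661 normalized counts, and 15, 43 and 107 reads in KO MΦs, or 22.5, 37.8 and 68.1 normalized counts. The 12-week het library was far above the rest. At 1 week KO MΦs were 7.55-fold higher with the het library set to a floor of 3 reads. The counting interval of that log2 ratio began at 2.44. At 12 weeks KO MΦs were 9.7-fold lower (log2 -3.28, -3.58 to -2.99). At 3 weeks the interval, -0.75 to 1.14, included 0. The fibroblast marker sum was higher in KO at 1 week and lower at 12 weeks as well, and its part was not tested. Timp3 lies inside Syn3 on the opposite strand and shares 1733 exon bases with it, and Syn3 was at 222 and 28.0 normalized counts in the 12-week het and KO libraries.

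Timp1, a secreted inhibitor that is induced in many inflamed tissues, had 2, 16 and 368 reads in het MΦs and 5, 26 and 170 in KO MΦs, or 1.98, 38.9 and 174 against 7.49, 22.9 and 108 normalized counts. Both genotypes were nearly without Timp1 at 1 week. The intervals of the log2 ratio included 0 at 1 week (-0.69 to 5.31) and 3 weeks (-1.72 to 0.23), so no difference was detectable at this depth, and at 12 weeks the ratio was -0.68 (-0.96 to -0.42). Timp1 lies inside Syn1 on the opposite strand but shares no exon bases with it.

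Counted together at 1 week, 3 members (Adam8, Timp1 and Timp3) were over 3-fold higher and 1 (Mmp9) over 3-fold lower in KO MΦs. Of all genes tested, 2.75% were higher and 0.75% lower by that measure. The Timp1 ratio rests on 7 reads in all. The median log2 ratio of the members was 0.86 against -0.04 over all genes, and it was 0.42 with a pseudocount of 10 and 0.09 with the filter applied to the 1-week libraries, which leaves out Timp1 and Timp3. The 6 MMPs had a median of -0.68. At 3 weeks no member passed 3-fold either way, where 1.34% of genes were higher and 0.642% lower, and the members' median was -0.13 against 0.02. At 12 weeks 4 members (Mmp2, Mmp13, Timp2 and Timp3) were over 3-fold lower and none higher, beside 9.99% and 4.03% of all genes. The median of all 10 members was -1.04 against 0.04, with the MMPs at -1.01 and the TIMPs at -3.28. Scaling by total reads shifted the ratio of all genes at 12 weeks by -0.22 and brought Mmp9 (-1.61) past 3-fold as well, with no change of direction among the members.

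The replicated comparison set the 3 KO against the 3 het libraries with age as a term (limma). Its error is how far the genotype effect varied between ages, pulled toward that of other genes of like level. No gene was called at an adjusted p under 0.05 (0% of 11067), and 853 genes (7.71%) passed an unadjusted 0.05. Among these were 4 members. Mmp9 differed by -1.49 on the log2 scale (SE 0.28, adjusted p = 0.561), Mmp2 by -1.60 (SE 0.45, adjusted p = 0.627) and Mmp13 by -1.69 (SE 0.58, adjusted p = 0.627), each lower in KO at 3 of 3 ages. Adam8 differed by 1.18 (SE 0.38, adjusted p = 0.627), higher at 3 of 3 ages. Over all genes, 17.2% were lower and 17.4% higher in KO at all 3 ages. The other 6 members had differences between -1.13 (Timp2) and 0.56 (Mmp14), with adjusted p between 0.627 and 0.992. An exact permutation test over the 3 ages cannot go below p = 0.25, which Mmp2, Mmp9, Mmp13 and Adam8 reached. Without the 12-week libraries Mmp9 was the only member called, at -1.54 (adjusted p = 0.0105), among 61 genes (0.551%). Mmp2 was at -0.93, Mmp13 at -0.82 and Timp2 at -0.01. That fit has 1 residual degree of freedom, and its error leans on the variance of other genes. The Mmp9 log2 ratios at 1 and 3 weeks were -2.24 and -0.84, against a fitted SE of 0.26.

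Between 1 and 3 weeks the log2 ratio of ages was above 0 for all 10 members in KO MΦs, with an interval that included 0 for Timp3 (0.75, -0.13 to 1.71). In het MΦs it was above 0 for 8 of 10, the exceptions being Mmp13 (-0.02, -0.07 to 0.03) and Mmp14 (-0.36, -0.44 to -0.27). Over 3-fold higher were 4 members in het MΦs, Mmp19 (3.54-fold), Adam8 (5.39-fold), Timp1 and Timp3, beside 5.2% of genes. Timp1 was 19.6-fold higher, from 2 to 16 reads (log2 interval 2.21 to 7.46). Timp3 was 11.5-fold higher against a floor of 3 reads, with a log2 interval starting at 3.03. In KO MΦs the members over 3-fold higher were Mmp9 (5.65-fold) and Timp1 (3.05-fold, from 5 to 26 reads), beside 3.88%. No member was over 3-fold lower, where 1.36% of genes were in het and 1.15% in KO MΦs. TMM scaling gave 0.01 for Mmp13 in het MΦs, and total-read scaling turned the sign of Mmp12 in KO MΦs, as given above.

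Between 3 and 12 weeks the genotypes parted. In het MΦs 3 members were over 3-fold higher, Mmp19 (4.81-fold), Timp1 (4.47-fold) and Timp3 (19.4-fold), beside 5.41% of genes, and none was over 3-fold lower, beside 0.949%. In KO MΦs Timp1 (4.73-fold) and Adam8 (3.35-fold) were over 3-fold higher, beside 5.75%, and Mmp2 (9.89-fold), Mmp9 (3.36-fold), Mmp13 (4.33-fold) and Timp2 (4.56-fold) were over 3-fold lower, beside 8.45%. Mmp2 and Mmp9 were lower with age in het MΦs too, by 1.96-fold and 2.3-fold. With the deposited scaling Mmp13 and Timp2 were the members with opposite signs in the 2 genotypes, and Mmp12 joined them with total-read scaling. Each genotype had 1 library per age, so that difference was not tested.

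In limma, with both genotypes together, no member was called between ages. Between 1 and 3 weeks 2 genes (0.0181%) were called, Xdh and Spint1, and 957 (8.65%) passed an unadjusted 0.05, 4 members among them. Between 3 and 12 weeks 3 genes (0.0271%) were called, Cxcl3, Ndrg1 and Spint1, and 2261 (20.4%) passed an unadjusted 0.05, 5 members among them. These names were chosen after their values were seen. The count turned on the 12-week libraries. Without the 12-week het library, Mmp9, Mmp19, Timp1, Timp2 and Adam8 were called higher at 3 than at 1 week, beside 8.93% of genes, and without the 12-week KO library these 5 and Timp3, beside 9.18%. For 12 against 3 weeks, 7 members were called without the 12-week het library, beside 28.2% of genes, with Timp2 at -2.34 (SE 0.26, adjusted p = 1.97e-05), and 6 without the 12-week KO library, beside 5.94%, with Timp2 at 1.01 (SE 0.26, adjusted p = 0.0374). These fits have 1 residual degree of freedom and take the lone 12-week library to vary like the others.

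Per kb of exon, the median over the 6 libraries was highest for Mmp13 (4118 normalized counts per kb, 863 to 9354), followed by Mmp12 (1384, 472 to 2425), Mmp14 (764, 573 to 1898), Timp2 (482, 128 to 1314), Mmp19 (348, 81.7 to 1392), Mmp9 (319, 69.8 to 708), Adam8 (277, 44.3 to 1056), Mmp2 (122, 13.8 to 210), Timp1 (34.8, 2.23 to 196) and Timp3 (4.41, up to 81.2). The ranges of neighbours in this order overlapped in every case. Mmp13 made up 71.7%, 58.7% and 65.0% of the summed per-kb level of the 6 MMPs in het MΦs at 1, 3 and 12 weeks, and 42.4%, 54.2% and 15.9% in KO MΦs. At 12 weeks Mmp14 was the largest of the 6 in KO MΦs, with 35.0% against 5.52% in het MΦs.

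Because Mmp14 was higher and Timp2 lower in the 12-week KO library, their ratio within a library, which no scaling between libraries can change, stood out. Per kb it was 2.37, 0.786 and 0.605 in het MΦs and 1.79, 1.43 and 14.9 (13.9 to 16.0) in KO MΦs at the 3 ages. The het and KO values overlapped, since the 1-week het library was above KO MΦs of 1 and 3 weeks. The ratio of Mmp13 to Mmp12 was 9.64, 3.25 and 3.86 in het MΦs and 1.31, 2.70 and 0.553 in KO MΦs. It was lower in each KO library than in each het library, as were Mmp13 alone and 2.78% of all genes. The share of gene pairs that separate so was not computed. Summed over 6 MMPs and 3 TIMPs the ratio was 20.3, 9.86 and 9.04 in het and 10.5, 11.3 and 21.0 in KO MΦs. At 12 weeks both sums were lower in KO than in het MΦs, 5419 against 14380 per kb for the MMPs and 258 against 1591 for the TIMPs. These ratios were chosen with the values known and are given without a test.

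**Figure D4:**
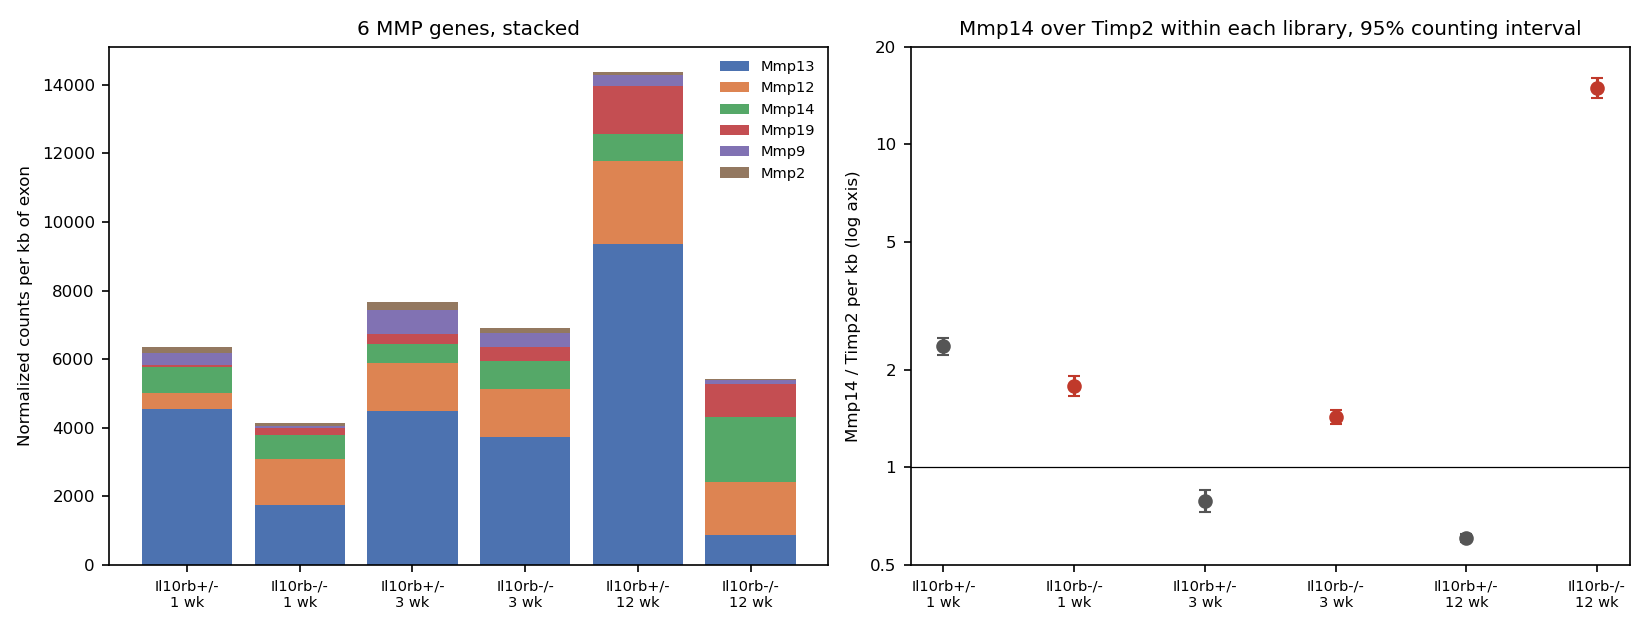
Left, normalized counts per kb of exon of the 6 MMP genes, stacked, in each library, with Mmp13 at 65.0% of the sum in 12-week het MΦs and 15.9% in 12-week KO MΦs. Right, the ratio of Mmp14 to Timp2 per kb (log axis) with its 95% counting interval, at 14.9 in 12-week KO MΦs and between 0.605 and 2.37 in the other 5 libraries.

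Among the other MMPs, 12 of 16 were in the table and 3 passed the filter. At 12 weeks 2 of these were over 3-fold higher in KO MΦs, beside 4.03% of all genes. They were Mmp8 and Mmp25 (149 against 523), a membrane-bound MMP of leukocytes. Mmp24 was at 133 and 196. Of the other inhibitors, neither Timp4 nor Reck passed the filter. Of the ADAM and ADAMTS proteases, 8 passed, and 3 were over 3-fold lower and none higher, beside 9.99% and 4.03% of all genes. These were Adamts1 (361 against 47.8), Adamts4 (135 against 22.3), both proteoglycan-cleaving, and Adam19 (2933 against 708). Adamts4 passed the filter only through the 12-week het library. No gene of any of these lists was called by limma.

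In the plasminogen system, which activates several MMPs, 6 of 7 genes passed the filter. At 12 weeks 3 were over 3-fold lower in KO MΦs, beside 9.99% of all genes. Among them were Plau, the urokinase activator (2321 against 559), and the inhibitor Serpine2 (104 against 28.7). Serpine2 passed the filter only through the 12-week het library. The receptor gene Plaur, chosen after its values were seen, was at 16302 and 27510. Of 6 genes for MMP activation, docking and clearance, 1 was over 3-fold higher and 1 lower, beside 4.03% and 9.99% of all genes. Cd63, a partner of Timp1, was the lower one (8538 against 1626), and Bsg, an inducer of MMPs, was at 3216 and 6687. Lcn2, which binds Mmp9, was the higher one (9.46 against 488). It passed the filter only through the 12-week KO library, so its call was largely fixed by the filter. Lcn2 is also a neutrophil product, and neutrophil markers were higher in that library.

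Of the lysosomal cathepsins, proteases of a different class, and their cystatin inhibitors, 7 of 8 genes passed the filter. None of the 7 differed by 3-fold at 12 weeks, where 9.99% of all genes were lower and 4.03% higher by that measure. Ctsb was at 85702 and 47896 normalized counts, Ctsl at 16508 and 9709 and Ctsz at 21142 and 31602 in het and KO MΦs. Of 8 matrix substrates, 3 were over 3-fold lower in KO MΦs at 12 weeks, beside 9.99% of all genes. These were the laminin Lamb1 (228 against 22.3), the perlecan gene Hspg2 (185 against 35.7) and elastin, Eln (40.7 against 10.2). Hspg2 passed the filter only through the 12-week het library, and Eln was under it in both 12-week libraries. At 1 week 3 of the 8 were over 3-fold higher, beside 2.75% of all genes, and Eln had 2 and 83 reads. Fibroblast markers, which are partly matrix genes too, were lower and higher in the same libraries, and their part was not tested.

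The genes whose profiles over the 6 libraries were nearest to a member are a description, since 6 points shared by genotype and age leave many genes alike. Nearest to Mmp13 by Pearson correlation of log2 values were Srgap3 (r = 0.996), Pgf (0.993), a growth factor of the VEGF family, and Cobll1 (0.993), and 37 of 11066 genes exceeded 0.95. For Mmp12 they were Mrfap1 (0.995), the chemokine Cxcl14 (0.995) and Tmem259 (0.989). For Mmp14 they were Il1f9 (0.999), a cytokine of the IL-1 family, Tmbim6 (0.999) and Traf6 (0.998), a signalling adaptor of Toll-like receptors, with 315 genes over 0.95. For Timp1 they were Raet1e (0.998), Tnfsf14 (0.996) and Trip10 (0.994).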

How the data were processed

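The authors trimmed single-end reads (Trim Galore), mapped these to mm10 (TopHat), obtained gene counts (HTSeq) and normalized by size factor (DESeq), per the labels and the study's methods. The deposited values are this normalized signal, with 0 reads shown as 1. Versions, annotation and strand setting are not given in the sources used here. Samples were grouped by labelled genotype and age. Reads per gene were read back from the step of each library's values, between 0.473 and 2.43 normalized counts, and gave exact Clopper-Pearson 95% intervals for counting error alone. Against 0 reads, a fold was computed with a floor of 3 reads, which leaves out counting error in the other library. The call at 1 age was 3-fold. Genotypes and ages were compared with limma 3.58.1 (R 4.3.3) on log2(value + 1) over 11067 genes at 50 normalized counts or more in at least 1 library, with the other factor as a term, eBayes moderation along a trend, and p adjusted over all tested genes by Benjamini-Hochberg. P-values thus weigh a mean effect against how far it varied between ages or genotypes, after that moderation toward other genes. Python 3.11.15 (scipy 1.17.1, numpy 2.4.6) served for the rest, and figures were drawn with matplotlib 3.10.9. The tests were tested on simulated data. Gene positions and exon lengths came from GENCODE for GRCm38 (14085 of 14097 genes found), promoters from RefSeq. The members and gene lists were chosen with earlier results of these data known. Named from each pathway list were the up to 3 genes past the filter with the largest ratio at 12 weeks (1 of them is not reported here), and beside Mmp12, Mmp13, Mmp14 and Timp1 the 3 genes of highest correlation. Alternatives were another pseudocount, filter and scaling, no age term and leaving out libraries.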

Additional observations from a re-analysis of the deposited data

Results flagged for a closer look

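Among the 10 members, 5 had genotype ratios of opposite sign at different ages, with counting intervals that left out 0 at each age named here. Of all genes tested, 17.4% were higher and 17.2% lower in KO at all 3 ages, so a change of sign was common. The share of all genes with such intervals was not computed. The difference between ages was not tested, because there was 1 library per genotype and age. The log2 ratio of KO to het was 1.51 at 1 week and -0.64 at 12 weeks for Mmp12. It was -0.11, 0.54 and 1.26 at 1, 3 and 12 weeks for Mmp14, and 1.43, 0.49 and -0.53 for Mmp19. For Timp2 it was 0.30, -0.33 and -3.37. For Timp3 it was -3.28 at 12 weeks and 4.49 at 1 week, where the het library had 0 reads shown as 1. That 1-week value is no measured ratio. Against a floor of 3 reads it was 7.55-fold, with a log2 interval starting at 2.44. The 1-week sign for Mmp14 is a difference of 1.08-fold.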

How the results depend on the processing

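Of 342 member ratios recomputed under the alternatives, 338 kept their direction, and 4, of Mmp12 and Mmp13, changed sign, each from a value between -0.02 and 0.17. With a pseudocount of 10, 1 gene was called between genotypes (Il10rb), as it was without the age term, 8 between 1 and 3 weeks and 8 between 3 and 12 weeks, where total-read scaling called 0. Without the libraries of 1 age, 3 to 61 genes and 0 to 1 members were called between genotypes. Without 1 library, 1 to 1016 genes and 0 to 6 members were called between 1 and 3 weeks, and 1 to 3124 genes and 0 to 7 members between 3 and 12 weeks. The highest counts came without a 12-week library, and without the 1-week KO library Adam8 was called between 3 and 12 weeks (adjusted p = 0.048). Members over 3-fold higher in KO at 1 week fell from 3 to 1 (Adam8) with a pseudocount of 10 or with the filter applied to the compared libraries. That filter also left 2 of 4 in het and 1 of 2 in KO between 1 and 3 weeks. Between 1 and 3 weeks in KO, a pseudocount of 10 and total-read scaling also left 1, as total-read scaling did between 3 and 12 weeks in KO. The members' median at 1 week fell from 0.86 to 0.42 with a pseudocount of 10 and to 0.09 with that filter, and at 12 weeks it was -1.26 with total-read scaling. Averaged over ages, Timp1 became -0.22 and Timp3 -0.47 with a pseudocount of 10, and Timp1 -0.04 with total-read scaling. Without the libraries of 1 age, Mmp12 ranged from -0.32 to 0.76, Mmp19 from -0.02 to 0.96, Timp1 from -0.71 to 0.41 and Timp3 from -1.56 to 1.85, with the lowest values without the 1-week libraries. Likewise Timp2 ranged from -1.84 to -0.01, Mmp13 from -2.41 to -0.82 and Mmp2 from -2.09 to -0.93, nearest to 0 without the 12-week libraries, Mmp9 from -1.81 to -1.11, Mmp14 from 0.21 to 0.90 and Adam8 from 0.61 to 1.57. The cause of these changes was not tested. Planned count-based tests were not run, because 0 reads are shown as 1 in the table. No paired analysis was possible because no group has more than 1 library, so a replicate number cannot serve as a block, and the pairing by age is already the age term. Depth limits Timp1 and Timp3 before 12 weeks.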
